A study of Rattus norvegicus with 2 samples.

Results

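Neurotrophins, GDNF (glial cell line-derived neurotrophic factor) and their receptors were followed as 7 genes in rat sympathetic neurons that had or had not been grown with their muscle target. The ligand genes were Bdnf, Ntf3 and Gdnf, and the receptor genes were Ngfr, Ntrk2, Ntrk3 and Gfra1. The genes were chosen by name, and every probe set assigned in the platform annotation to exactly 1 of these symbols was taken, which gave 11 probe sets of 12783 with 1 symbol, and 7 genes of 10411. All 7 had at least 1 probe set.

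The platform was the Affymetrix Rat Expression Set 230A, an oligonucleotide array, and 2 arrays were run, 1 per culture. The first held RNA from sympathetic neurons cultured with myocytes (called neurons from co-culture), and the second RNA from sympathetic neurons cultured without them (neurons alone). Per the labels' protocol, the less adherent neurons were lifted off the dish with 1 mM EDTA for 2 min, and the same text stands for both samples. The study asked how gene expression differs once neurons have met target cells and stopped growing. The groups were taken from the titles and source names, whereas the description field of the co-culture sample names neurons grown alone, a conflict that the labels do not settle. The sources used here do not give strain, age, genotype, time in culture, any growth factor in the medium, or the number of cultures behind each array. The neurons were separated by adhesion alone, and in RNA of such bulk samples fewer cells of a type and less RNA per cell cannot be told apart. With 1 array per culture no difference has a replicate check, no p-value was computed, and what is compared is 1 array with another rather than 1 condition with another.

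Neurotrophins are small secreted proteins that keep developing neurons alive and shape their axons and synapses. Each binds a Trk receptor tyrosine kinase, BDNF chiefly TrkB (the Ntrk2 product) and neurotrophin-3 chiefly TrkC (the Ntrk3 product), and all of them bind the p75 receptor encoded by Ngfr, a member of the tumour necrosis factor receptor family that can act with a Trk or on its own. GDNF binds GFRα1, the lipid-anchored product of Gfra1, and the pair signals through the receptor tyrosine kinase RET. Postnatal sympathetic neurons depend on factors made by their targets, and neurotrophin-3 is among those that support them. BDNF made by sympathetic neurons has been found to act on them through p75 in rodents.

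The median deposited intensity over the 15866 probe sets other than controls was 175.0 in neurons from co-culture and 185.7 in neurons alone, and a probe set was taken as above the signal filter if it reached its array's median in at least 1 array. Intensities below 39.6, the 20th percentile of both arrays pooled, were set to that floor before log2 was taken. The difference is given as the log2 ratio of co-culture over alone. The spiked hybridization controls were brighter in neurons from co-culture in 15 of 18 probe sets, with a mean log2 ratio of 0.11. The 3' to 5' signal ratio, a sign of RNA integrity, was 1.24 in neurons from co-culture and 1.15 in neurons alone for beta-actin, and 1.17 in neurons from co-culture and 1.13 in neurons alone for Gapdh. Over the 6368 genes above the filter, each valued by its brightest probe set, the median log2 ratio was -0.01, and 52.7% were lower in neurons from co-culture.

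Among the 7 genes, Ngfr carried a strong signal that was nearly equal in both arrays, Gfra1 lay close to the array median, and the other 5 were dim. No gene of the 7 had a probe set above the filter that differed by 2-fold between the arrays. Above the filter were 2 of the 11 probe sets, 1 of Ngfr and 1 of Gfra1, and with them 2 of the 7 genes (28.6%), against 61.2% of all genes. Of the 9 probe sets below the filter, 5 were under the floor in both arrays, where the intensities carry no order that can be relied on.

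**Figure D1:**
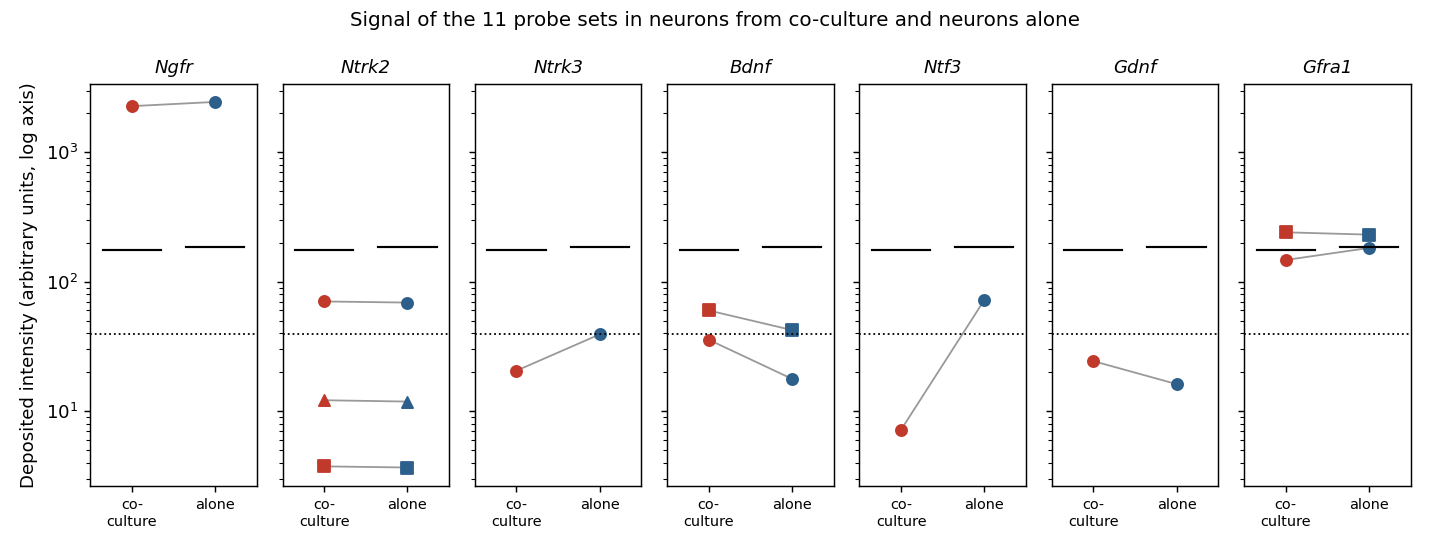
Deposited intensity (log axis, arbitrary units) of each probe set of the 7 genes in neurons from co-culture (red, left) and neurons alone (blue, right), 1 array each; symbols tell a gene's probe sets apart, solid bars mark each array's median and the dotted line the floor of 39.6. Ngfr lies far above both medians, 1 Gfra1 probe set lies just above them, and the probe sets of Ntrk2, Ntrk3, Bdnf, Ntf3 and Gdnf all lie below them.

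Ngfr, the p75 neurotrophin receptor, was read by 1 probe set (1368148_at). Its intensity was 2275 in neurons from co-culture and 2453 in neurons alone. The 2 values differ by 1.08-fold, a log2 ratio of -0.11. A single probe set at this brightness varied with an SD of 0.20 on the log2 scale, estimated from pairs of probe sets for the same gene, so the Ngfr difference was smaller than that spread. The ratio stayed negative under all 5 ways of scaling the arrays to each other, from -0.21 with the spiked controls to -0.02 with median scaling.

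Gfra1, the receptor subunit that binds GDNF, had 2 probe sets that differed in sign. The brighter one (1387007_at) had an intensity of 241 in neurons from co-culture and 231 in neurons alone, at a log2 ratio of 0.06 (scaling to the spiked controls gave -0.05). The dimmer one (1367954_at) had 147 in neurons from co-culture and 182 in neurons alone, just under each array's median, a log2 ratio of -0.31. The SDs of 1 probe set at these signals were 0.36 and 0.38, so neither difference exceeded the technical spread, and the mean of the 2 log2 ratios was -0.12. Gfra1 thus had no direction that both of its probe sets shared.

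The Trk receptor genes Ntrk2 and Ntrk3 were below the filter on every probe set. Ntrk2 encodes TrkB, which exists as a full-length kinase and as truncated forms without it, and its probe sets were designed on different deposited transcripts, though which form each reads was not resolved here. The brightest (1368972_at) had 70.3 in neurons from co-culture and 68.9 in neurons alone, a log2 ratio of 0.03, or -0.08 under scaling to the spiked controls. The second (1370687_a_at) had 12.1 in neurons from co-culture and 11.8 in neurons alone. The third (1370652_at) had 3.73 in neurons from co-culture and 3.66 in neurons alone. These last 2 probe sets were under the floor in both arrays, and all 3 differed by at most 1.02-fold as deposited. Ntrk3, the gene of TrkC, had 20.5 in neurons from co-culture and 39.2 in neurons alone on its 1 probe set (1368939_a_at), again under the floor in both.

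Of the ligand genes, Bdnf was the only one with 2 probe sets, and both had a higher intensity in neurons from co-culture. The brighter (1368678_at) had 59.9 in neurons from co-culture and 42.3 in neurons alone, a log2 ratio of 0.50, or from 0.40 to 0.70 over the 5 scalings. The other (1368677_at) had 35.6 in neurons from co-culture and 17.7 in neurons alone, which is 2.01-fold as deposited but under the floor in both arrays. Single probe sets this dim varied with SDs of 0.70 and 0.98 when no floor was set, so the brighter Bdnf probe set lay within 1 SD of 0 and the dimmer about 1 SD above it. A higher floor, at the 40th percentile (119), brought the log2 ratio to 0.

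Ntf3, which encodes neurotrophin-3, had the widest gap of the 7 genes as deposited, at an intensity of 7.16 in neurons from co-culture and 72.2 in neurons alone (1387267_at). The co-culture value was under the floor, and neither value reached its array's median. With the floor the log2 ratio was -0.86 (1.82-fold lower in neurons from co-culture), without it -3.33, and 0 with that higher floor. The SD of 1 probe set at that signal was 1.25 without a floor. Ntf3 has a single probe set, so no other measurement on the arrays bears on this difference.

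Gdnf was under the floor in both arrays, at 24.3 in neurons from co-culture and 16.1 in neurons alone (1369598_at). At these intensities a change in Gdnf was not detectable, and the same holds for Ntrk3 and for the dimmer probe sets of Ntrk2 and Bdnf. No detection call was used here, so a value under the floor does not show that the transcript was absent.

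Differences of 2-fold were more frequent among dim probe sets than among bright ones. Above the filter, 1.16% of 8308 probe sets differed by at least 2-fold (0.942% of the 6368 genes by brightest probe set), and none of the 2 member probe sets there did. Below the filter and with no floor, 17% of 7558 probe sets did, with 2 of the 9 member probe sets among them, the dimmer one of Bdnf (higher in neurons from co-culture) and that of Ntf3 (lower). A gap of at least 8-fold downward, as Ntf3 showed, was seen in 0.82% of the probe sets below the filter, or 62 of them. The higher and lower shares at 2-fold below the filter were 5.81% and 11.2%.

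**Figure D2:**
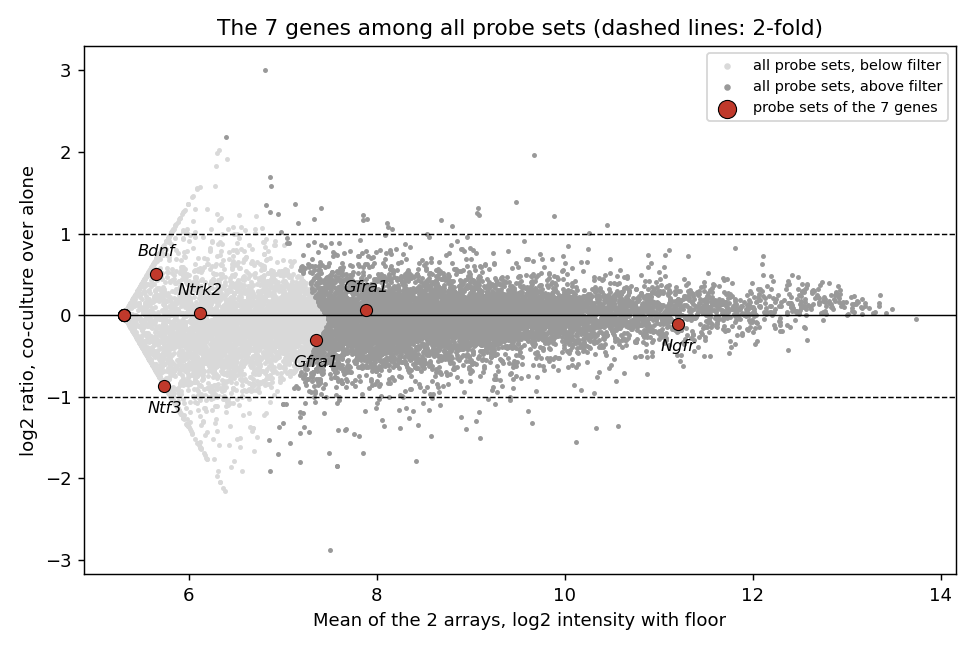
log2 ratio of co-culture over alone (y axis) against the mean log2 intensity of both arrays after the floor (x axis) for all 15866 probe sets, with the 11 probe sets of the 7 genes in red. Ngfr sits within the narrow band of bright probe sets at -0.11, and Ntf3 and the brighter Bdnf probe set sit at the dim end. Ntf3 lies on the edge of the fan that the floor creates, and that Bdnf probe set lies inside it.

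The other ligands and receptors of both families gave a fuller view of the receptor side. Of 21 listed genes beside the 7, 15 were on the arrays with a probe set of their own symbol and 9 were above the filter. Of these 9, 2 were higher and 7 were lower in neurons from co-culture, where 52.7% of all genes above the filter were lower. The median log2 ratio of the 9 was -0.30 (-0.41 with the spiked controls, where 1 was higher, and -0.22 with median scaling, where 2 were), against -0.01 for all genes. Pspn (116 in co-culture, 226 alone) passed the filter only through neurons alone, where it is higher, so nothing is read from this count. None of the 9 reached 2-fold, though Pspn did with the spiked controls.

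Ret, the shared signalling receptor of the GDNF family, was above the filter on all 3 of its probe sets, and each was lower in neurons from co-culture. The brightest had 1005 in neurons from co-culture and 1089 in neurons alone, a log2 ratio of -0.12. The second had 638 in neurons from co-culture and 721 in neurons alone (-0.18), and the third 560 in neurons from co-culture and 778 in neurons alone (-0.47), where the SD of 1 probe set was 0.27. Thus 1 of the 3 Ret differences exceeded the spread of a probe set. Gfra2, the receptor for neurturin, had 508 in neurons from co-culture and 564 in neurons alone (-0.15), and a dim second probe set had 58.7 in neurons from co-culture and 117 in neurons alone. Ncam1, a cell adhesion molecule that can serve as an alternative GDNF receptor, had 238 in neurons from co-culture and 348 in neurons alone (-0.55, SD of 1 probe set 0.36), and its dimmer probe set, with 49.4 in neurons from co-culture and 61.6 in neurons alone, was also lower. Gfra4, the persephin receptor, and Gas1, a related surface protein, were under the floor in both arrays.

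On the neurotrophin side, Sort1, the gene of sortilin, a coreceptor of p75 for proneurotrophins, had 290 in neurons from co-culture and 422 in neurons alone, a log2 ratio of -0.54. Its second probe set, below the filter, had 77.1 in neurons from co-culture and 148 in neurons alone (-0.94), so both Sort1 probe sets lay beyond the SDs of 0.29 and 0.38 at their signals. Lingo1, a partner of p75 in the receptor for myelin inhibitors, had 203 in neurons from co-culture and 288 in neurons alone (-0.51, SD of 1 probe set 0.36). Nradd, a p75-related protein, had 3 probe sets above the filter with log2 ratios of -0.30, -0.03 and 0.03. The sortilin relatives Sorcs2 (381 in co-culture, 346 alone, 0.14) and Sorl1 (398 in co-culture, 371 alone, 0.10, or -0.01 under scaling to the spiked controls) were the 2 higher ones, each by less than the spread of a probe set. The Nogo receptor gene Rtn4r (91.7 in co-culture, 64.8 alone on its brightest probe set) was below the filter, and Sorcs3 was under the floor.

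**Figure D3:**
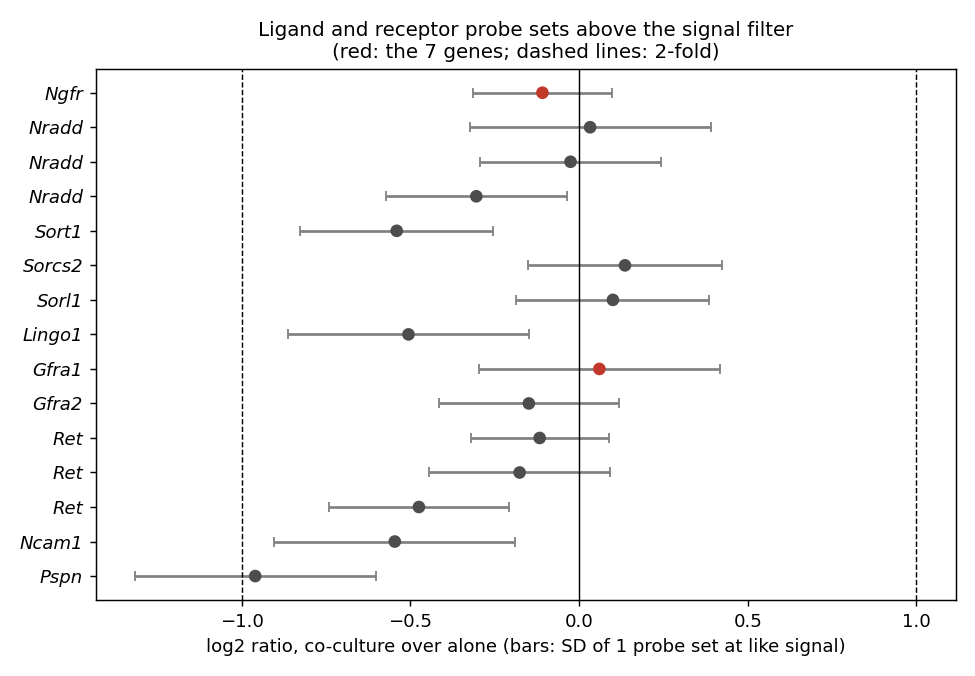
log2 ratio of co-culture over alone for each probe set of a ligand or receptor gene above the signal filter, with bars of 1 SD of a single probe set at like signal (a technical spread within these arrays, not a replicate error). Ngfr and Gfra1 (red) lie within 1 SD of 0, whereas Sort1, Lingo1, Ncam1, Pspn, 1 of 3 Ret and 1 of 3 Nradd probe sets lie more than 1 SD below 0.

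The remaining ligand genes were dim, like those among the 7. Of 6 ligand genes on the arrays only Pspn (persephin) was above the filter, through its value in neurons alone. It had 116 in neurons from co-culture and 226 in neurons alone, a log2 ratio of -0.96 (SD of 1 probe set 0.36) that ranged from -1.07 with the spiked controls to -0.86 with the lowess correction. Nrtn (neurturin) had 53.9 in neurons from co-culture and 53.5 in neurons alone, and Ntf4 (neurotrophin-4) was under the floor at 8.05 in neurons from co-culture and 3.76 in neurons alone. The genes Artn, Gfra3, Gfral and Sorcs1 were not analysed here.

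Adaptors and signalling partners of the Trk, RET and p75 receptors were mostly bright and close to equal. Of 29 on the arrays, 23 were above the filter, with a median log2 ratio of -0.09. Of these, 8 were higher and 15 lower in neurons from co-culture (65.2% lower, against 52.7% of all genes above the filter). Under median scaling the split was 12 higher and 11 lower, with a median of 0.00, and under scaling to the spiked controls 4 higher and 19 lower. None reached 2-fold. The largest differences were in Rit2, a neuronal Ras-like GTPase (280 in co-culture, 449 alone, 1.60-fold lower), Shc2, a Trk adaptor (135 in co-culture, 201 alone), Bex1, a p75-binding protein (446 in co-culture, 605 alone), and Ndn, the gene of necdin (1370 in co-culture, 1710 alone). Shc2 passed the filter only through its value in neurons alone, where it is higher, so nothing is read from its place here. The brightest were Rhoa, a GTPase regulated by p75, with 3496 in neurons from co-culture and 3709 in neurons alone (-0.09, or 0.00 with median scaling), and Maged1, which binds p75. Maged1 had 2725 in neurons from co-culture and 2711 in neurons alone (0.01), and its sign was negative after quantile normalization, lowess and the spiked-control scaling.

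Proteins that cleave or sort proneurotrophins and their receptors also went both ways. Of 15 on the arrays, 8 were above the filter, with a median log2 ratio of -0.16. Of these, 3 were higher and 5 lower in neurons from co-culture (62.5% lower, against 52.7% of all genes above the filter). Plat, tissue plasminogen activator, which activates the plasmin that can cleave proBDNF, had 1407 in neurons from co-culture and 781 in neurons alone, a log2 ratio of 0.85 against an SD of 0.20. Psen2, a subunit of the gamma-secretase that cuts p75, was lower (185 in co-culture, 265 alone, -0.52), as were Adam10 (165 in co-culture, 202 alone, -0.29) and Cpe, a peptidase that sorts prohormones (1741 in co-culture, 1999 alone, -0.20). Adam10 passed the filter only through its value in neurons alone, where it is higher, so nothing is read from its direction.

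Over all 6 lists without the 7 genes, 40 genes were above the filter, with a median log2 ratio of -0.12 against -0.01 for all genes. Of the 40, 13 were higher and 27 (67.5%) lower in neurons from co-culture, against 52.7% lower among all genes above the filter. The split was 17 higher and 23 lower under median scaling and 7 higher and 33 lower with the spiked controls. Past 1.5-fold were 1 higher (Plat) and 2 lower (Pspn and Rit2), where 1.93% and 3.3% of all genes above the filter lay. Pspn (116 in co-culture, 226 alone), Shc2 (135 in co-culture, 201 alone) and Adam10 (165 in co-culture, 202 alone) passed the filter only through neurons alone. They are higher there, so nothing is read from the counts of lower genes that hold them. These lists were assembled with earlier results of these arrays known.

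Markers of the cell types that could be in the cultures were compared between the arrays as well. All 14 sympathetic neuron markers on the arrays were above the filter and lower in neurons from co-culture, with a median log2 ratio of -0.38 and a summed intensity of 35994 in neurons from co-culture and 44376 in neurons alone. Of all genes, 61.2% were above the filter, and 52.7% of those were lower, with a median of -0.01. The brightest were Npy (5507 in co-culture, 6799 alone), Th (4575 in co-culture, 6175 alone), Gap43 (5028 in co-culture, 5492 alone) and Prph (4598 in co-culture, 5008 alone), and the noradrenaline transporter gene Slc6a2 was 2.54-fold lower (217 in co-culture, 552 alone). Receptor genes above the filter lay on both sides of the neuron marker median of -0.38. Nearer to 0 were Ngfr at -0.11, Gfra2 at -0.15 and Ret at -0.12 on its brightest probe set, and below the median were Ncam1 at -0.55, Sort1 at -0.54, Lingo1 at -0.51 and the third Ret probe set at -0.47. How any receptor transcript changed per neuron was not tested.

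Fibroblast and smooth muscle markers were bright in both arrays, with a summed intensity of 59598 in neurons from co-culture and 54457 in neurons alone, and 13 of 17 were higher in neurons from co-culture (median log2 ratio 0.25). Among all genes above the filter, 3012 of 6368 were higher, with a median of -0.01. The brightest were Col1a1 (10750 in co-culture, 9988 alone), Col1a2 (9907 in co-culture, 9350 alone), Vim (8646 in co-culture, 8328 alone) and Col3a1 (5831 in co-culture, 4894 alone). The log2 ratios of the first 3 were 0.11, 0.08 and 0.05. Lowess made all 3 negative, quantile normalization Col1a1 and Vim, and the spiked controls Col1a2 and Vim. Mgp (1603 in co-culture, 412 alone) and Dcn (652 in co-culture, 306 alone) were past 2-fold. The 4 lower ones were Acta2 (2913 in co-culture, 4040 alone, -0.47), Tagln (3500 in co-culture, 4094 alone, -0.23), Myl9 (1430 in co-culture, 1687 alone, -0.24) and Thy1 (-0.28), named after their values were seen. Acta2, Tagln and Myl9 are contractile genes, but so is Cnn1, which was higher (423 in co-culture, 353 alone, 0.26). The contractile genes thus did not share 1 direction. Gdnf can also be made by such cells, and their part in the values above was not tested.

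Schwann and satellite glia also carry p75, so their markers stand beside Ngfr. Of 11 on the arrays, 8 were above the filter, 6 of them higher in neurons from co-culture (median 0.27). The list's summed intensity was 6578 in neurons from co-culture and 6074 in neurons alone. Egr2 (288 in co-culture, 174 alone), Erbb3 (231 in co-culture, 160 alone) and Gfap (182 in co-culture, 169 alone) passed the filter only through neurons from co-culture. They are higher there, so nothing is read from the count or its median, which was 0.10 with the 25th percentile filter. Sox10, the defining transcription factor, had 750 in neurons from co-culture and 706 in neurons alone (0.09, or -0.02 with the spiked controls). The others that were brightest were Pmp22 (2916 in co-culture, 3141 alone), Cnp (1134 in co-culture, 835 alone) and S100b (524 in co-culture, 263 alone). The share of the Ngfr signal that came from glia was not tested. Of 15 cardiac myocyte markers, 5 were above the filter, with 3 higher and 2 lower (median 0.18), and the list's summed intensity was 3283 in neurons from co-culture and 3288 in neurons alone. The brightest of these were Ankrd1 (1166 in co-culture, 1643 alone), Tnnt2 (408 in co-culture, 293 alone), Nppb (309 in co-culture, 180 alone) and Pln (279 in co-culture, 284 alone, -0.02, but positive in the 4 scalings other than the spiked controls). Ankrd1, lower in neurons from co-culture, was the brightest entry of that sum. Nppb and Nppa (201 in co-culture, 178 alone) passed the filter only through neurons from co-culture. They are higher there, so nothing is read from the split of these markers or from its median. Of the 10 markers below the filter, 5 had more signal in neurons from co-culture and 5 had less. Named after their values were seen, Myl2 had 134 in neurons from co-culture and 44.8 in neurons alone (1.58, SD of 1 probe set 0.70). Myh6 had 134 in neurons from co-culture and 74.3 in neurons alone (0.85, SD 0.38). The second Myl2 probe set was under the floor in both arrays (24.6 in co-culture, 22.4 alone). Tnnc1 (160 in co-culture, 178 alone) and Ckm (142 in co-culture, 156 alone) were among those with less signal. A dimmer Tnnt2 probe set was also lower (47.2 in co-culture, 63.3 alone). Nothing is read from these picked values.

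Macrophage markers were above the filter for 6 of 9 genes, with 1 higher (Cd14, 475 in neurons from co-culture and 420 in neurons alone) and 5 lower, among them Lyz2 (484 in co-culture, 563 alone), Cd68 (230 in co-culture, 275 alone) and C1qa (177 in co-culture, 202 alone), a median of -0.24 and sums of 1836 in neurons from co-culture and 2092 in neurons alone. Aif1 (160 in co-culture, 203 alone) and Csf1r (132 in co-culture, 191 alone) passed the filter only through neurons alone. They are higher there, so nothing is read from the macrophage split. Of 6 endothelial markers 1, Eng (774 in co-culture, 672 alone), was above the filter, and the sums were 1025 in neurons from co-culture and 950 in neurons alone. Of the 4 genes checked for chromaffin cells, the adrenaline-making relatives of these neurons, Th, Dbh and Chga were above the filter and lower in neurons from co-culture (median -0.44, sums of 6347 in co-culture and 8660 alone), while Pnmt, the enzyme that defines them, was below it at 44.6 in neurons from co-culture and 120 in neurons alone. Chga (131 in co-culture, 206 alone) passed the filter only through neurons alone, where it is higher, so nothing is read from its direction. All deposited values were positive, so no marker could be listed at 0, and the presence of a cell type cannot be read from that.

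**Figure D4:**
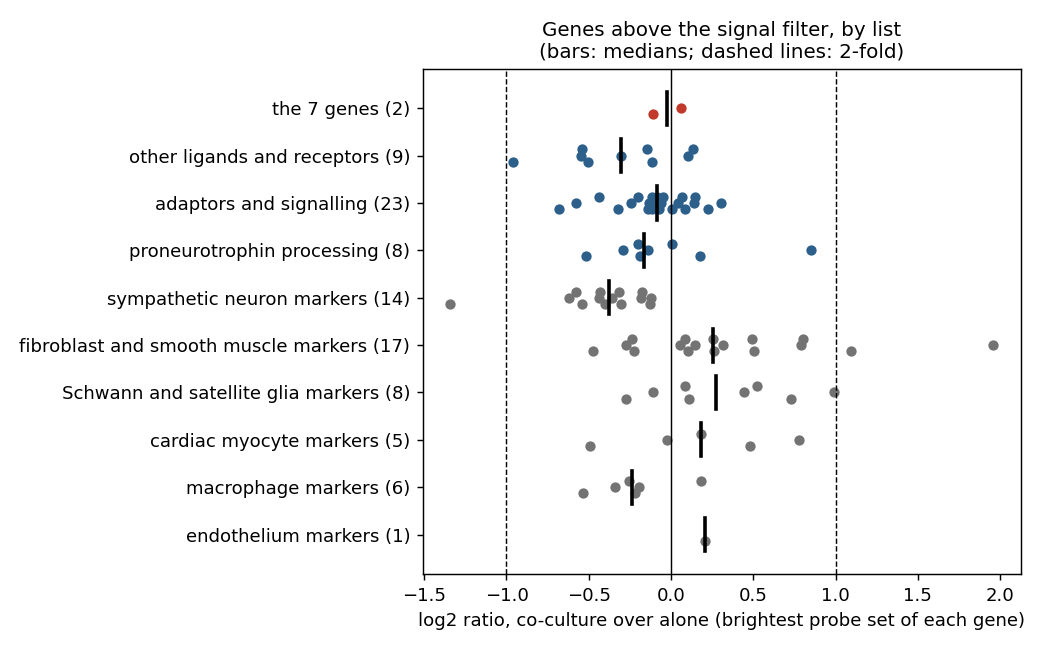
log2 ratio of co-culture over alone for each gene above the signal filter (brightest probe set), by list, with the number of genes in brackets and the median as a bar. The 2 of the 7 genes that passed (red) lie at -0.11 and 0.06, the sympathetic neuron markers all lie below 0, and most fibroblast, smooth muscle and glial markers lie above it.

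How far the values of the 7 genes depend on the choice of floor was plain for the dim ones. Across 9 settings of scaling and floor, the log2 ratio of Ngfr stayed between -0.21 and -0.02. Gfra1 stayed between -0.05 and 0.15 on its brighter probe set. Ntf3 ranged from -3.33 to 0 and Ntrk3 from -0.93 to 0.00, each with the lowest value where no floor was set. Bdnf ranged from 0 to 0.70 and Gdnf from 0 to 0.59.

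**Figure D5:**
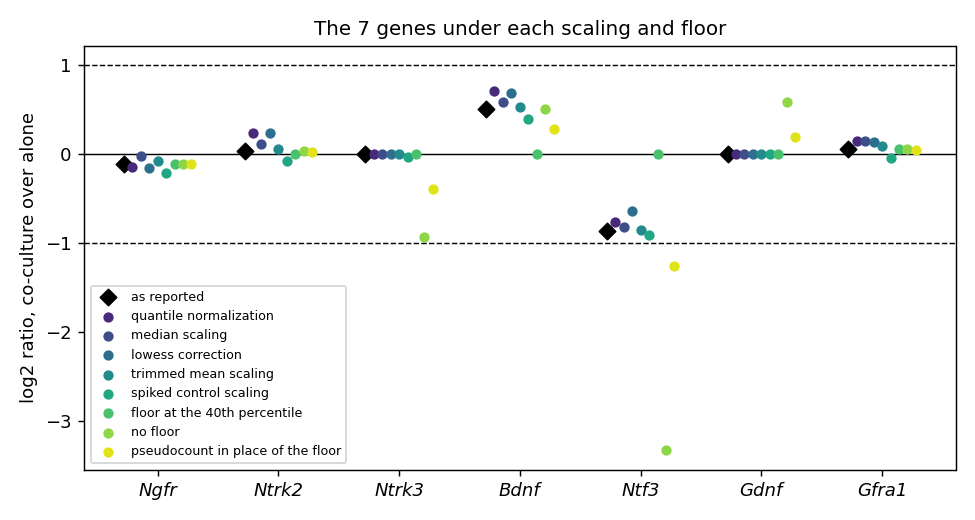
log2 ratio of co-culture over alone of the 7 genes (brightest probe set) as reported (black diamonds) and under 5 scalings and 3 other treatments of the floor (coloured points). Ngfr and Gfra1 hold within a narrow range, whereas Ntf3, Ntrk3, Bdnf and Gdnf spread with the floor, Ntf3 from -3.33 to 0.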

How the data were processed

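The authors deposited a linear intensity for each probe set, all values being positive. The series' design text names dChip 1.3 for quantification, and the submitters' processing notes name MAS5. The sources used here do not say which made the intensities, how they were scaled or how background was removed. Biotin-labelled cRNA was hybridized, so each array has 1 colour, and the number of arrays limits the precision.

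Deposited intensities were used without further normalization, and 57 control probe sets were left out of the counts. Of 15866 probe sets, 12783 had 1 symbol, 312 several and 2771 none. Values under the pooled 20th percentile were raised to that floor before log2, and alone was subtracted from co-culture. Each gene was represented by its brightest probe set. The spread of 1 probe set came from genes with several: the SD of the difference between their 2 brightest probe sets, over the square root of 2. It was taken in 4 groups by signal, above the filter with the floor (749 genes) and below it without (628 genes). There was 1 array per culture, so no test was made. The computation was checked on simulated arrays with known fold changes. These were planted only in probe sets at or above the median of neurons alone, so the check does not cover dim ones. Python 3.11.15, numpy 2.4.6, pandas 2.3.3 and statsmodels 0.14.6 were used.

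The named genes were the 7 members with every probe set, all listed ligands and receptors, up to 4 adaptors and up to 4 processing genes with the largest differences plus the 2 brightest of each, and up to 4 of the brightest markers per list plus any past 2-fold. The members, the lists of pathway genes and markers, and the alternatives were chosen with earlier results of these data known. With 2 arrays no likeness of pattern between genes could be computed. The alternatives were 5 scalings (quantile, median, lowess with span 0.3, 2% trimmed mean, spiked hybridization controls), 3 treatments of the floor, filters at the 25th percentile and none, the mean over probe sets, and leaving out probe sets for several transcripts.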

Additional observations from a re-analysis of the deposited data

How the results depend on the processing

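No paired analysis was possible because there is 1 array per culture and the labels give no replicate numbers, and for the same reason no replicate could be left out. A value counted as moved if it shifted by more than the SD of 1 probe set at like signal (0.28 over all signals for medians), and a count if it changed by over 1.5 times. No named difference past 2-fold changed sign. Scaling to the spiked controls shifted the median of all probe sets above the filter by -0.11 on the log2 scale. Without a floor Ntf3 moved to -3.33, and the dimmer Bdnf probe set moved from 0 to 1.00. Among the 7 genes above the filter, 1 was higher and 1 lower, which became 0 and 2 with the spiked controls and with the mean over probe sets, and 3 and 2 with a 25th percentile filter or none; their median of -0.02 turned positive with quantile normalization (0.00), median scaling (0.06), trimmed mean scaling (0.00) and the lower filter (0.03). With the spiked controls the higher genes numbered 1 among neurotrophin receptors, 0 among GDNF family receptors and 4 among adaptors, and 1 GDNF family ligand, Pspn, passed 2-fold. With the mean over probe sets they numbered 0 among GDNF family receptors and 5 among adaptors. With the 25th percentile filter or none, 4 neurotrophin receptors, 1 GDNF family ligand and 5 processing genes were higher. With no filter 8 processing genes were lower. The median of the GDNF family ligands was -0.47 with the 25th percentile filter and 0 with none, as more dim genes entered.

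Over the 8308 probe sets above the filter, 28 were higher and 68 lower in neurons from co-culture at 2-fold. These were 36 and 53 after quantile normalization, 34 and 52 with median scaling, 35 and 53 with lowess, 17 and 43 with a pseudocount, and 82 and 213 with the lower filter or none. At 1.5-fold, 159 and 352 became 242 and 228 with median scaling, 215 and 259 with quantile normalization, 208 and 263 with lowess, 92 and 586 with the spiked controls, and 390 and 1021 with the lower filter or none, and 234 were lower with a pseudocount. The cause of these shifts was not tested beyond the added dim genes. The scalings of genes outside the 7 were added after seeing the data. Of the 7 genes, 5 lie below the array medians, and their signal over background was not measured.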

Other observations

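Probe sets of 1 gene disagreed in several partners of these receptors, which were picked after their values were seen. Nras, a Ras GTPase downstream of Trk and RET receptors, had 777 in neurons from co-culture and 665 in neurons alone on its brighter probe set (log2 ratio 0.22), but 498 and 709 on another (-0.51). Sorl1 had 6 probe sets, of which 1 was above the filter (0.10), and a dimmer one had 155 in neurons from co-culture and 119 in neurons alone (0.38) while another had 49.4 and 57.5 (-0.22). Rapgef1, a Rap1 exchange factor, had 76.2 and 47.6 on 1 probe set and 7.99 and 63.4 on the other, both below the filter. By contrast, both probe sets of Kidins220, a scaffold that binds Trk receptors and p75, were above the filter and lower in neurons from co-culture, at 1286 against 1522 (-0.24, SD of 1 probe set 0.20) and 307 against 382 (-0.31, SD 0.29).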
